A study of Mus musculus and Rattus norvegicus with 28 samples.

Results

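Csf1 and 9 genes used as markers of resident macrophages were followed in cardiomyocytes of the perinatal mouse heart and in cultured neonatal rat ventricular cardiomyocytes. The 10 genes were taken by name from the expression files. They were Csf1, its receptor gene Csf1r, the general macrophage genes Adgre1 and Lyz2, the complement C1q chains C1qa, C1qb and C1qc, and the surface receptors Mrc1, Lyve1 and Cd163. They were 10 of 55450 mouse genes and 10 of 32623 rat genes in the files, of which 13979 and 13625 passed a minimum of 1 FPKM (a transcript level corrected for transcript length and library depth) in 2 mouse or 3 rat libraries. In the mouse 9 of the 10 passed, without Cd163, and in the rat 8 passed, without Lyve1 and Cd163.

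Mouse cardiomyocytes came from left ventricles of untreated C57BL/6 mice, either fetal at embryonic day 18.5 (E18.5) or 1, 3 or 7 days after birth (P1, P3, P7). Each time point had 2 RNA-seq libraries and 2 ATAC-seq libraries, the latter a measure of open chromatin by transposase cutting. Rat cells came from left ventricles of Sprague Dawley rats at postnatal day 1, were plated, and one day later received 100 nM TSA (trichostatin A, an inhibitor of histone deacetylases) or the solvent DMSO, with 3 RNA-seq libraries each. Dissociated heart cells were pre-plated so that quickly attaching cells could be removed, so a library was a cardiomyocyte preparation with whatever other cells remained. Estimated depth ran from 29.3 to 37.5 M reads in the mouse and from 28.2 to 38.5 M reads in the rat.

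CSF1 is a secreted growth factor that keeps macrophages alive, and its receptor CSF1R is a tyrosine kinase carried by monocytes and macrophages. It is made by stromal cells, among others, and the receptor also binds interleukin-34. Resident cardiac macrophages arise in the embryo. They are known for clearing debris, for making the C1q chains that open the classical complement pathway, and for the receptors MRC1, LYVE1 and CD163, which take up glycoproteins, bind hyaluronan and remove haemoglobin bound to haptoglobin.

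Markers of cell types other than cardiomyocytes were measured at unequal levels in the preparations. Of 8 cardiomyocyte markers, all 8 were lower at P7 than at E18.5, and their summed level was 24665 to 31627 FPKM at E18.5 and 816 to 1931 FPKM at P7. All 8 fibroblast markers were higher at P7, with a sum of 432 to 442 FPKM at E18.5 and 2907 to 3628 FPKM at P7. Endothelial markers summed to 247 to 456 FPKM at E18.5 and 330 to 384 FPKM at P7, and red cell genes fell from at least 29044 FPKM at E18.5 to at most 41.0 FPKM in any later library. E18.5 replicate 2 stood apart by T-cell genes, with Cd3e at 9.45 FPKM against 0.022 in E18.5 replicate 1 and 0 in the 6 later libraries. Of the rat libraries DMSO replicate 3 stood apart, with macrophage marker sums of 445 FPKM against up to 914 FPKM in the other DMSO libraries, though not in these genes alone. In such bulk samples, fewer cells of a type and less RNA per cell cannot be told apart.

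Csf1 was the member with the highest mean level in the mouse and rose after birth. Its gene lies at chr3:107741048-107760469 on the minus strand (mm10). It measured 45.3 and 27.5 FPKM in the E18.5 libraries and 205 and 138 FPKM in those of P1. The P3 libraries reached 226 and 253 FPKM, and the P7 libraries 251 and 238 FPKM. Both E18.5 libraries lay below each of the 6 neonatal ones, and P3 and P7 overlapped.

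**Figure D1:**
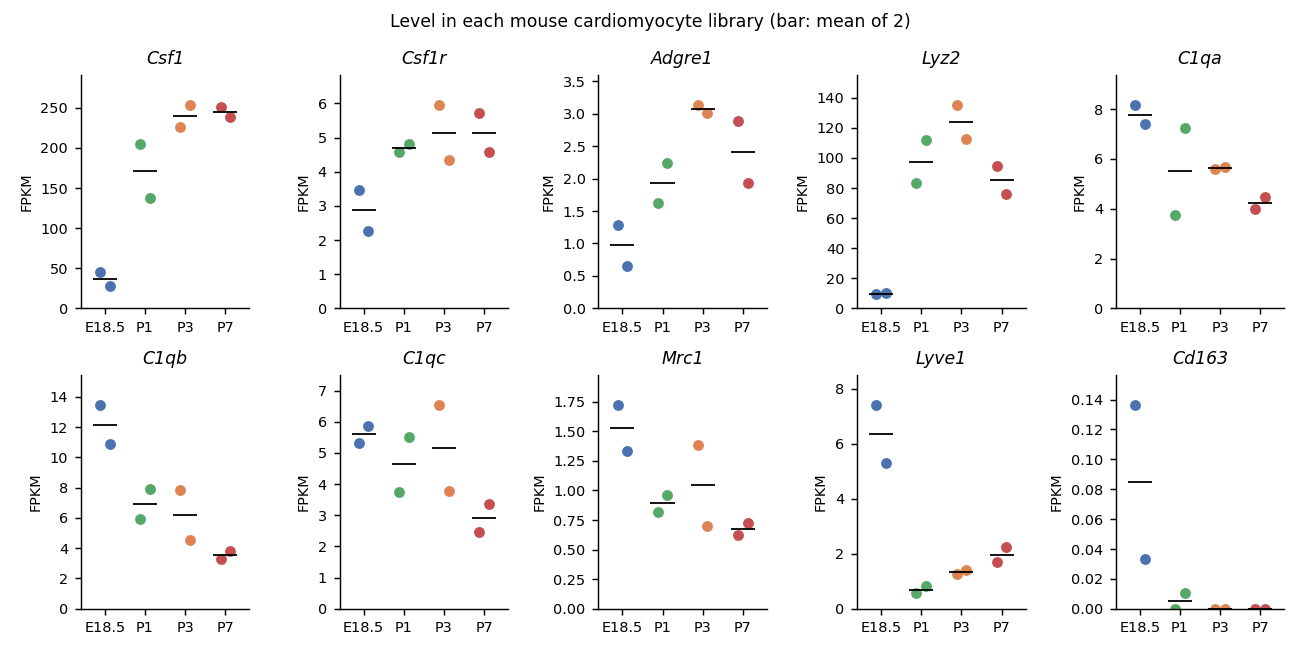
Level of each of the 10 genes in FPKM (vertical axes, each from 0) in the 2 mouse RNA-seq libraries of each time point (points), with their mean (bar). Csf1 and Lyz2 were higher in each neonatal library than in both E18.5 libraries, Lyve1 was lower in each, and Cd163 stayed under 0.14 FPKM.

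On the log2(FPKM + 1) scale the rise of Csf1 against E18.5 was 2.22 at P1 (SE 0.25, limma adjusted p = 0.00046), 2.73 at P3 (SE 0.25, limma adjusted p = 0.00013) and 2.76 at P7 (SE 0.25, limma adjusted p = 6.7e-05). A gene was called when the adjusted p over all genes tested was under 0.05 and the difference exceeded 1 on this scale. Of the 9 tested members, 2 were called higher at P1 and 1 lower, where 10.1% of all tested genes were called higher and 6.06% lower. At P3 there were 3 higher and 1 lower, against 13% and 8.88% of all genes. At P7 there were 2 higher and 2 lower, against 15.4% and 12.3%. The members' median differences at P1, P3 and P7 were -0.24, -0.14 and -0.59, beside 0.15, 0.16 and 0.14 over all tested genes. That common shift depended on the scaling: it was 0.38 to 0.41 in TPM (levels rescaled so that each library has the same total) and -0.02 to -0.01 with median-of-ratios size factors. Csf1 was called in all 13 fits at each of the 3 ages, with values from 1.87 to 3.11, E18.5 replicate 2 left out among them.

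Between neonatal time points 0 of the 9 members were called by limma. Of all tested genes 0.0143% were called higher and 0% lower from P1 to P3, 3.45% higher and 5.46% lower from P1 to P7, and 1.35% higher and 2.2% lower from P3 to P7. An unadjusted p under 0.05 was found for 1 member from P1 to P3 (Lyve1), where 11.3% of all genes had one. From P1 to P7 there were 2 such members (Lyve1 and C1qb), against 31% of all genes, and from P3 to P7 there were 3 (Lyz2, C1qb and C1qc), against 18.5%. Limma-voom on estimated reads called 0, 1 and 0 members in these comparisons. The difference of Csf1 was 0.51 from P1 to P3 (95% interval -0.07 to 1.09) and 0.03 from P3 to P7 (95% interval -0.55 to 0.61).

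Most of the Csf1 signal was assigned to one protein-coding transcript of 4176 bases, ENSMUST00000014743.9, which took 83.1% to 89.1% of the gene's FPKM in every mouse library. The next were ENSMUST00000153114.1 with a mean of 8.17 FPKM, ENSMUST00000118593.7 with 7.15 FPKM and ENSMUST00000120243.7 with 6.69 FPKM. The share of the main transcript thus moved little while the total rose. A short-read assembly splits reads between overlapping transcripts by estimate, so shares of single transcripts are less certain than the gene total.

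Csf1 was the only member with an annotated transcript start inside an ATAC-seq peak at E18.5. The 250 bases before its RefSeq start (GRCm38.p6, the build called mm10, chr3:107760470-107760719, minus strand) are shown because peaks of 6 of the 8 ATAC-seq libraries reached into them. Capitals mark the GC box GGGCGG, searched on both strands:
Csf1: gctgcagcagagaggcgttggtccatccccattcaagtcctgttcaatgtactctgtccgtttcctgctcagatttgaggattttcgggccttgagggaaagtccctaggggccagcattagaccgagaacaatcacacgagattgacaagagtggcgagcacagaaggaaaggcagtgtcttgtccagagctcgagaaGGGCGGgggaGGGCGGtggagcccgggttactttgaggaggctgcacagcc
The 2 matches begin 51 and 41 bases before the start, do not overlap, and the window is 56.4% G and C. A GC box occurs in 32.7% of 32851 RefSeq promoter windows of this length. The letters TGANTCA of AP1, GAGGAA of ETS factors, TATAAA of the TATA box and the MEF2 motif were not in the window, and are in 6.75%, 23.3%, 12.4% and 2.92% of all windows.

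Csf1r, the receptor gene, lies at chr18:61100598-61132149 on the plus strand and stayed low. It measured 3.47 and 2.27 FPKM in the E18.5 pair of libraries, 4.59 and 4.82 in the P1 pair, 5.95 and 4.34 in the P3 pair and 5.72 and 4.57 in the P7 pair. Each neonatal library was above both E18.5 libraries, and the neonatal ages overlapped one another. The difference from E18.5 was 0.58 at P1 (95% interval 0.08 to 1.07), 0.67 at P3 (0.18 to 1.17) and 0.68 at P7 (0.18 to 1.17). The limma adjusted p-values of 0.064, 0.032 and 0.028 came with differences under the threshold of 1, so Csf1r was not called at any age, nor in any of the other fits. With size factors it was 0.42, 0.50 and 0.54.

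The ligand was far more abundant per length than the receptor in every mouse library. The ratio of Csf1 to Csf1r in FPKM was 13.04 and 12.1 in the E18.5 pair of libraries, 44.7 and 28.6 in the P1 pair, 38.0 and 58.4 in the P3 pair and 43.9 and 52.2 in the P7 pair. Both E18.5 ratios were below all neonatal ones. By mean level Csf1 ranked 397 among the 13979 tested genes and Csf1r ranked 9298. The 3' end of Csf1r overlaps Hmgxb3 on the other strand by 873 bases, and Hmgxb3 was at 10.2 to 13.1 FPKM. No strand setting is given in the sources used here, so reads in that overlap cannot be assigned to one gene with certainty.

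Among the general macrophage genes, Lyz2, which encodes lysozyme and is made by macrophages and neutrophils, changed most. Its gene lies at chr10:117277331-117282321 on the minus strand. It was at 9.45 and 10.3 FPKM at E18.5, then at 83.3 and 112 FPKM at P1, 135 and 113 FPKM at P3, and 94.8 and 75.7 FPKM at P7. The E18.5 libraries lay far below all others. The rise was 3.17 at P1 (SE 0.18, limma adjusted p = 4.0e-05), 3.52 at P3 (SE 0.18, adjusted p = 1.7e-05) and 2.98 at P7 (SE 0.18, adjusted p = 1.5e-05). Lyz2 was called in all 13 fits at each age, with values from 2.81 to 3.83. The near-identical copy Lyz1 was at 0.044 to 0.30 FPKM, and reads shared by both copies could be counted with either.

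The sequence before the Lyz2 start is shown as a second example, because both P3 libraries and P7 replicate 1 had a peak over it and the other 5 ATAC-seq libraries did not. It is the 201 bases before the first annotated start (GRCm38.p6, chr10:117282322-117282522, minus strand). ETS factors were searched by the letters GAGGAA only, so other forms of an ETS site were not looked for. As searched, none of the 5 motifs was in this window, so it holds no capitals:
Lyz2: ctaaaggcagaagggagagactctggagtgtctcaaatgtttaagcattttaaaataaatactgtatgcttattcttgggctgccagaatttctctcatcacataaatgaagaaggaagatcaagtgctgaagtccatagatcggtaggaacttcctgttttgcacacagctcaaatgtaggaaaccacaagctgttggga
This window is 40.3% G and C. In all RefSeq windows of 201 bases the GC box occurs in 31.1%, the ETS letters in 19.1%, the TATA box in 10.02%, AP1 in 5.49% and MEF2 in 2.30%.

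Adgre1 encodes F4/80, the surface protein most used to identify mouse macrophages, and lies at chr17:57358691-57483527. It measured 1.28 and 0.66 FPKM in the E18.5 pair of libraries, 1.63 and 2.24 in the P1 pair, 3.13 and 3.00 in the P3 pair and 2.89 and 1.93 in the P7 pair. All neonatal libraries were above both E18.5 libraries. In the main fit it was called higher at P3 only, with a difference of 1.06 (SE 0.22, limma adjusted p = 0.0055), and was 0.59 at P1 and 0.80 at P7. At P7 it was called higher with a pseudocount of 0.1 (1.27), in TPM (1.19) and with limma-voom (1.36). The P3 call was lost with size factors (0.94) and without E18.5 replicate 2 (0.83). Whether P3 differed from P7 for Adgre1 was tested directly, with a difference of -0.27 from P3 to P7 and a limma adjusted p of 0.62.

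The 3 C1q chains lie next to each other on chromosome 4, within 18675 bases, and together form the recognition molecule of classical complement. None of them rose after birth. C1qb (chr4:136880129-136886187) was at 13.4 and 10.9 FPKM in the E18.5 pair of libraries, 5.93 and 7.90 in the P1 pair, 7.81 and 4.57 in the P3 pair and 3.28 and 3.84 in the P7 pair. Both E18.5 libraries lay above every later one, and both P7 libraries below every earlier one. C1qb fell by 1.53 at P7 (SE 0.25, limma adjusted p = 0.0011) in all 13 fits. Its differences at P1 (-0.74) and P3 (-0.90) stayed under the threshold, and that at P3 passed in 5 of 13 fits.

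C1qa (chr4:136895917-136898803) went from 8.16 and 7.39 FPKM in the E18.5 pair to 3.77 and 7.24 in the P1 pair, 5.62 and 5.66 in the P3 pair and 3.99 and 4.48 in the P7 pair. C1qc (chr4:136889804-136893065) went from 5.31 and 5.87 FPKM to 3.76 and 5.52, 6.53 and 3.76, and 2.45 and 3.35 FPKM. Both genes were lowest on average at P7, and for C1qc the E18.5 values overlapped those of P1 and P3. At P7 the differences were -0.75 for C1qa (95% interval -1.31 to -0.18) and -0.77 for C1qc (95% interval -1.37 to -0.17). Neither was called in any fit. For C1qc at P3 the difference of -0.14 turned to 0.08 in TPM.

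Lyz2 and the C1q chains thus did not keep one ratio. The ratio of Lyz2 to C1qa in FPKM was 1.16 and 1.39 in the E18.5 pair of libraries, 22.1 and 15.5 in the P1 pair, 24.1 and 19.9 in the P3 pair and 23.7 and 16.9 in the P7 pair. The lowest neonatal ratio, 15.5, was far above the higher fetal one. These ratios were computed after the values had been seen and carry no test.

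Of the surface receptors, Lyve1, which binds hyaluronan and is carried by a resident macrophage subset and by lymphatic vessels, fell at all neonatal ages. It lies at chr7:110850607-110863239 on the minus strand. It was at 7.40 and 5.29 FPKM in the E18.5 pair of libraries, 0.56 and 0.84 in the P1 pair, 1.27 and 1.42 in the P3 pair and 1.70 and 2.24 in the P7 pair. The 4 time points did not overlap, and the lowest values were at P1. Lyve1 fell by 2.10 at P1 (SE 0.20, limma adjusted p = 0.00023), fell by 1.63 at P3 (SE 0.20, adjusted p = 0.00044) and fell by 1.296 at P7 (SE 0.20, adjusted p = 0.00093), in all 12 fits that tested it. From P1 to P7 its difference was 0.80 (limma adjusted p = 0.028), under the threshold of 1, and 1.09 to 1.46 in the 3 alternatives that called it.

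Lymphatic markers stood beside Lyve1 with mixed directions. Of 6 such genes 4 were tested. Prox1, the transcription factor that sets lymphatic identity, went from a mean of 8.42 to 0.94 FPKM at P7 and fell by 2.28, and Ccl21a, a chemokine of lymphatic vessels, fell by 2.40. Pdpn, which is also made by stromal cells, rose by 4.20. Flt4, the other tested gene, was at 4.12 and 2.25 FPKM at E18.5 and at 6.77 and 7.50 FPKM at P7, and was not called. Prox1 fell along with the cardiomyocyte markers, and which cells its values came from was not tested. The part of lymphatic cells in the Lyve1 values was not tested either.

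Mrc1, the mannose receptor, and Cd163, the haemoglobin scavenger receptor, were barely present. Mrc1 (chr2:14229392-14332057) was at 1.72 and 1.33 FPKM in the E18.5 pair of libraries, 0.82 and 0.96 in the P1 pair, 1.39 and 0.70 in the P3 pair and 0.63 and 0.72 in the P7 pair. Its differences at P1, P3 and P7 were -0.41, -0.32 and -0.59 (95% interval of the last -1.05 to -0.13), and it was not called, although 2 of 12 fits called it lower at P7. Cd163 (chr6:124304656-124330527) was at 0.14 and 0.033 FPKM at E18.5, worth about 18 and 5 estimated reads, at 0.011 FPKM in P1 replicate 2, and was listed at 0 in the other 5 libraries. It was therefore not tested.

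Across the 8 mouse libraries some members moved together and others in opposite directions. Log2(FPKM + 1) of Csf1 moved with Lyz2 (Pearson r = 0.94), Csf1r (r = 0.89) and Adgre1 (r = 0.87), and against C1qb (r = -0.83), Lyve1 (r = -0.81), C1qa (r = -0.76) and Mrc1 (r = -0.74). C1qb moved with Mrc1 (r = 0.94), C1qc (r = 0.85) and C1qa (r = 0.83). Other pairs were less close, such as Lyve1 with C1qb (r = 0.58) and C1qc (r = 0.27), and Csf1 with C1qc (r = -0.56). These are descriptions over 8 libraries that share the split between E18.5 and the rest. The tested genes outside the marker lists most like Csf1 were Lima1, 3300005D01Rik, Coro1c, G6pdx and Iffo2, with r from 0.9971 to 0.9989. Those most like Csf1r were Osbpl10, Iah1, Fam32a, Elavl1 and Yju2, with r from 0.972 to 0.984.

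Other genes of the CSF1 pathway were taken from a list of 22 ligands, receptors and transcription factors, of which 21 were tested. At P1, 4 were called higher and 1 lower, at P3 again 4 and 1, and at P7 6 and 1. The split depended on the scaling: with size factors it was 2 higher and 4 lower at P1 and 4 and 3 at P3, and in TPM 6 and 1 at P1 and 8 and 1 at P3. In the main fit 10.1%, 13% and 15.4% of all tested genes were called higher at P1, P3 and P7, and 6.06%, 8.88% and 12.3% lower. The median difference of the list was 0.44, 0.67 and 0.52, above the 0.15, 0.16 and 0.14 of all genes. Without E18.5 replicate 2 the list median was 0.20, 0.45 and 0.27, beside 0.12, 0.13 and 0.11 for all genes. Besides Csf1, the ligand genes Csf3, Csf2 and Il34 were called higher at P7. Csf3, which encodes the growth factor of neutrophils, went from 5.01 and 4.67 FPKM to 36.6 and 36.6 FPKM and rose by 2.69 (SE 0.16, limma adjusted p = 1.5e-05). Csf2, the factor of granulocytes and macrophages, was lower than at E18.5 by 1.05 at P1 and 1.08 at P3. At P7 it was higher than at E18.5 by 2.003. Il34, the other ligand of the receptor, reached 2.20 and 2.18 FPKM at P7 from 0.29 and 0.74 FPKM at E18.5.

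The list also holds transcription factors of blood and macrophage cells. Runx1, a factor of blood cell formation, rose by 1.80 at P7, and Cebpb, which acts in myeloid and in many other cells, rose by 1.75. Spi1, which encodes PU.1, was at 4.25 and 2.75 FPKM at E18.5 and at 1.78 and 1.34 FPKM at P7 and was not called.

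In the main fit more of the other 22 macrophage genes were called higher than lower. Of 16 tested, 6 were called higher and 2 lower at P1. The P3 libraries gave 9 and 1, and the P7 libraries 6 and 1. Of all tested genes 10.1%, 13% and 15.4% were called higher at P1, P3 and P7, and 6.06%, 8.88% and 12.3% lower. With size factors the list gave 5 and 2, 8 and 1, and 5 and 2. In TPM it gave 7 and 2, 11 and 1, and 9 and 1. The list medians of 0.51, 1.12 and 0.86 were 0.59, 1.12 and 0.74 without E18.5 replicate 2. The summed level of these 22 genes was 104 to 107 FPKM at E18.5, 156 to 177 at P1, 240 to 251 at P3 and 225 to 228 at P7. At P7 the chemokine gene Pf4 rose by 2.57, the protease gene Ctss by 1.40, Cd53 by 1.23, the integrin gene Itgam by 1.12 and the clearance receptor gene Mertk by 1.08. Cd74, the chaperone of antigen-presenting molecules, fell by 2.65. Other defining genes were at or near 0: Cx3cr1 stayed under 0.1 FPKM in every mouse library, as did the monocyte receptor gene Ccr2, and Timd4 was under 0.1 FPKM in every neonatal library. Aif1 was at 0.26 to 0.51 FPKM until P3 and listed at 0 in both P7 libraries.

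**Figure D2:**
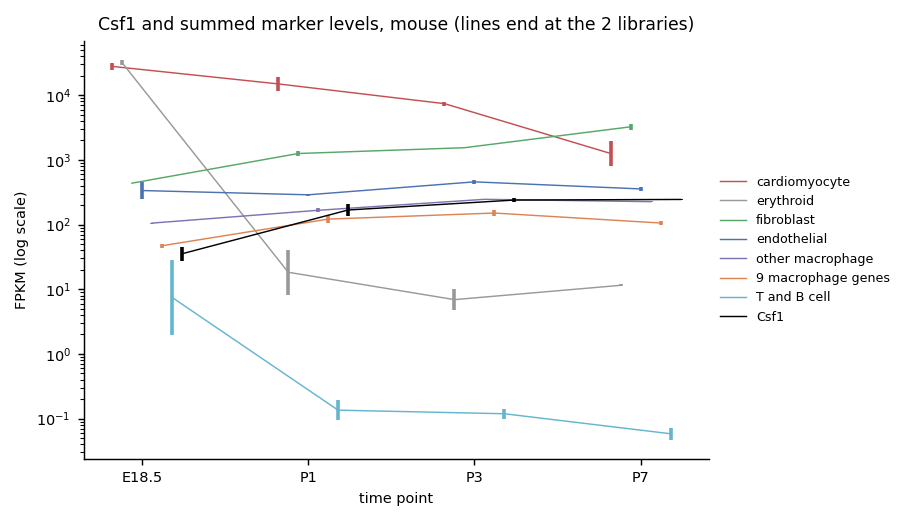
Csf1 and the summed FPKM of marker lists (vertical axis, log scale) at each mouse time point, where each vertical bar runs between the 2 libraries and thin lines join the bars. Csf1 and the fibroblast sum were lowest at E18.5 and cardiomyocyte markers were highest there, while endothelial markers stayed between 247 and 489 FPKM.

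Genes of other blood cells were also measured at unequal levels. Neutrophil genes, a second source of Lyz2, summed to 22.7 to 35.1 FPKM at E18.5, 2.40 to 16.2 at P1, 9.26 to 61.7 at P3 and 4.76 to 6.54 at P7, and 4 of the 7 tested were called lower at P7 and none higher. Without E18.5 replicate 2, 1 of the 7 was called lower. Of 5 monocyte genes 4 were tested, with 1 higher and 1 lower at each age, and Plac8, which other cells make too, accounted for 139 and 207 FPKM at P7. Mast cell genes were called lower for 2 of 3 at P1 and P3 and 1 of 3 at P7. Among all tested genes 6.06%, 8.88% and 12.3% were called lower at P1, P3 and P7, and 10.1%, 13% and 15.4% higher. Of 5 dendritic cell genes 1 was tested and not called, and of 6 T and B cell genes 1 was tested and was lower at each age. The part of these cells, and of the fibroblasts whose markers rose along with Csf1, in the members' values was not tested.

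Of 12 listed genes of the classical complement pathway, C1q chains included, 10 were tested. Among all tested genes 10.1%, 13% and 15.4% were called higher at P1, P3 and P7, and 6.06%, 8.88% and 12.3% lower. At P1 and P3 4 of the 10 were called higher, and at P7 6 were called higher and 1 lower. The lower one was C1qb, and the 6 higher ones lay outside the chains. Serping1, the inhibitor of the C1 proteases, went from 13.1 and 15.0 FPKM at E18.5 to 285 and 282 FPKM at P7 and rose by 4.24 (SE 0.15, limma adjusted p = 2.9e-06). The protease genes C1s1, C1ra and C1rb rose by 3.63, 3.15 and 1.80, and the downstream C4b and C3 by 1.44 and 1.14. These 6 genes are also made by fibroblasts.

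Around Cd163, 9 genes of haemoglobin and iron handling were listed. Of these 8 were tested, with 2 called higher at P1, and 4 higher and 1 lower at P3 and P7. Hp, which encodes haptoglobin, the plasma partner that CD163 recognises, rose by 5.79 at P7, from 1.02 and 2.03 FPKM to 155 and 119 FPKM. Lrp1, a scavenger receptor, rose by 3.56, the ferritin gene Fth1 by 1.202, and the iron transporter Slc11a1 by 1.23, while the iron exporter Slc40a1 fell by 1.33. Cd163 itself was listed at 0 in the P3 and P7 libraries.

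**Figure D3:**
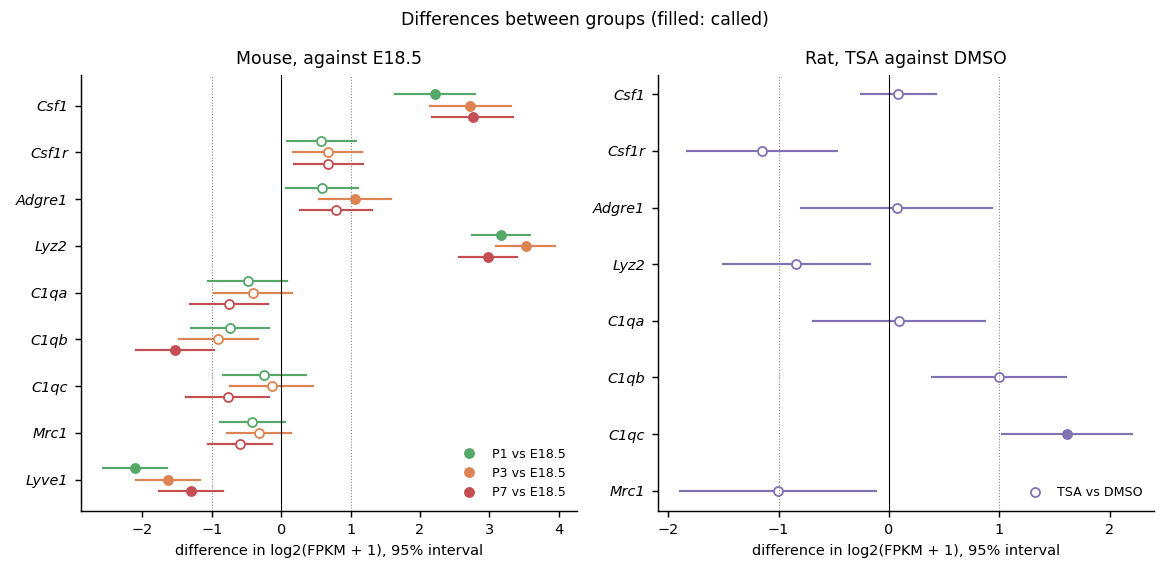
Difference in log2(FPKM + 1) with its 95% interval (horizontal axis) for each tested gene, in the mouse against E18.5 (left) and in the rat for TSA against DMSO (right), with filled points for called genes and dotted lines at -1 and 1. Csf1, Lyz2 and Lyve1 were filled at all 3 mouse ages, and C1qc was the one filled point in the rat.

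The ATAC-seq peak lists were then read within 2.5 kb of the members' annotated transcript starts. The lists differed in length, from 13149 peaks in E18.5 replicate 1 to 95257 in P3 replicate 1, so the presence of a peak depends on the library as well as on the gene. Both libraries held a peak for 1 of the 10 members in the E18.5 pair, 0 in the P1 pair, 4 in the P3 pair and 2 in the P7 pair. The same held for 56.7%, 41.3%, 87.5% and 83.2% of all 13979 tested genes. With the 13149 highest-scoring peaks of each list, the counts at P3 and P7 were 1 and 1. No share of all tested genes is given at that cut, so these counts cannot be read as particular to the members.

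At Csf1 a peak covered an annotated transcript start in 7 of 8 libraries, and P1 replicate 2 was the exception. The gene has several starts close together, and in E18.5 replicate 1 the peak ended 35 bases inside the gene, short of the outermost one. Its fold enrichment over the local background was 6.54 and 5.82 at E18.5, 5.19 in P1 replicate 1, 4.06 and 7.07 at P3, and 3.96 and 4.68 at P7. These values overlapped between time points, while the RNA level of Csf1 did not overlap between E18.5 and later. The merged region was chr3:107759924-107760721, over the first exon, part of the first intron and the bases upstream. Within 2.5 kb of a start, further peaks inside Csf1 introns were found only in P3 replicate 1 and P7 replicate 1, at 1.95-fold and 2.16-fold.

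Csf1r had no peak over its annotated starts but one inside the gene. It lay in an intron at chr18:61106744-61107277, at least 865 bases from the nearest annotated start. Its fold enrichment was 5.43 in P1 replicate 1, 9.78 and 8.68 at P3, and 5.62 and 4.54 at P7. Neither E18.5 list nor P1 replicate 2 held it. A second intronic peak at chr18:61108193-61108819 was found in both P3 libraries and in P7 replicate 1, at 3.42-fold to 3.94-fold.

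The Lyz2 start was in a peak in both P3 libraries, at 8.83-fold and 6.37-fold, and in P7 replicate 1, at 4.49-fold (chr10:117282009-117282383). At the 4 lists of E18.5 and P1 it was not, and the RNA of Lyz2 was at 83.3 and 112 FPKM at P1. By score the P3 peaks of Lyz2 ranked 16263 of 95257 and 28148 of 52040, and the P7 peak 30673 of 49113. The E18.5 lists held only 13149 and 14910 peaks. With lists of equal number Lyz2 had a peak in 0 libraries. The order in time of open chromatin and RNA at Lyz2 was therefore not tested. The Lyve1 start (chr7:110862964-110863285) was in a weak peak in both P3 libraries only, at 3.45-fold and 3.82-fold, and these ranked 88492 of 95257 and 50863 of 52040 by score. For C1qc and Mrc1 a peak was found in P3 replicate 1 alone, at 859 and 896 bases from a start. Adgre1, C1qa, C1qb and Cd163 had none within 2.5 kb in any library.

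**Figure D4:**
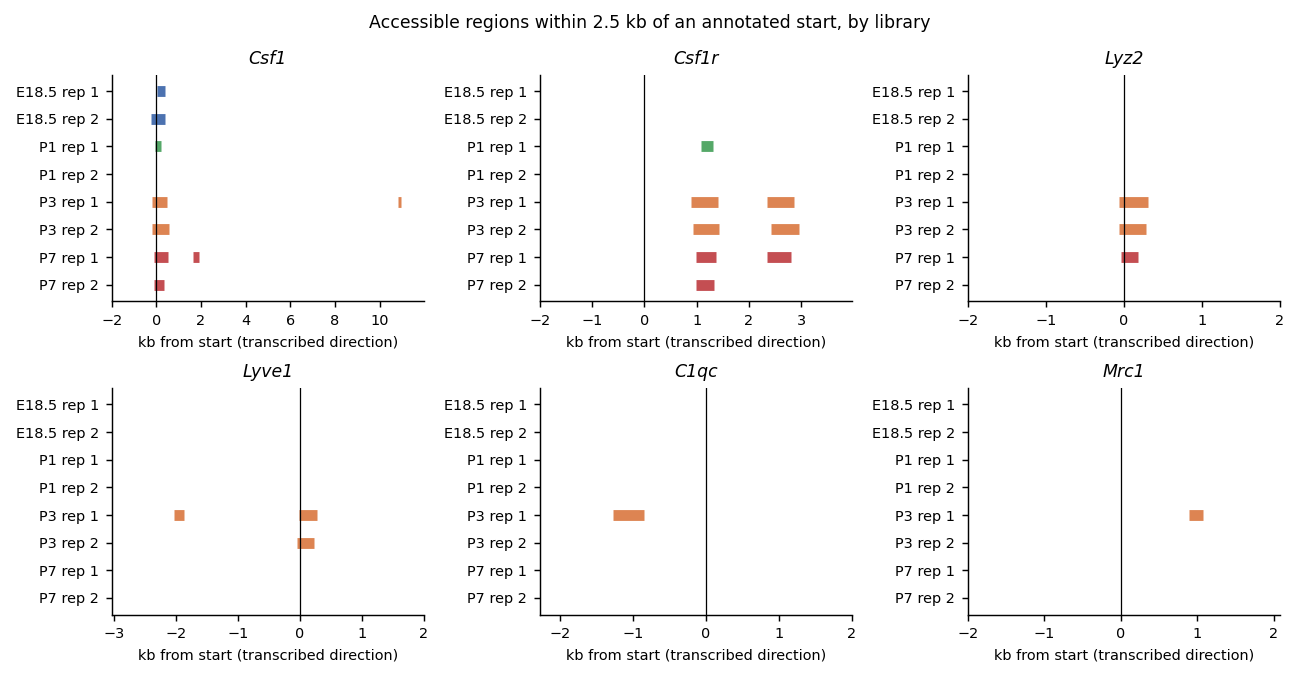
Peaks within 2.5 kb of an annotated start of the 6 members that had any, drawn against the start of the most abundant transcript (horizontal axis, kb in the direction of transcription) in each of the 8 ATAC-seq libraries (rows). The peak over a Csf1 start was in 7 libraries, and the intronic Csf1r peak in 5, none of them from E18.5.

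For contrast with Csf1, the window before C1qb (GRCm38.p6, chr4:136886201-136886450, minus strand) is shown as the start of a called member that no peak reached. Its capitals mark the ETS letters GAGGAA, found once, 30 bases before the start:
C1qb: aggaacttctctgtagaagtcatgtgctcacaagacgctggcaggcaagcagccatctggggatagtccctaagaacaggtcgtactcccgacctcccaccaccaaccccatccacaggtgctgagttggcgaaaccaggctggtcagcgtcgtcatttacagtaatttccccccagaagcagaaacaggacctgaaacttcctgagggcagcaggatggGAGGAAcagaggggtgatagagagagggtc
The window is 55.2% G and C and held no GC box, TATA box, AP1 or MEF2 match. Of the 10 members 6 were in the RefSeq promoter table, and Csf1r, Adgre1, C1qa and Lyve1 are named only.

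In the cultured rat cells Csf1, Csf1r and Lyz2 were measured well above the minimum of 1 FPKM. In DMSO, Lyz2 was at 777, 779 and 390 FPKM, Csf1r at 31.2, 34.0 and 15.1 FPKM, and Csf1 at 35.0, 35.9 and 35.0 FPKM. The ratio of Csf1 to Csf1r was 1.12, 1.06 and 2.32. DMSO replicate 3 had the lowest level of the DMSO group for every tested macrophage member, while its Csf1 was at the level of the other DMSO libraries. Lower values in it were not confined to macrophage genes. Dcn was at 89.8 FPKM in it against 186 and 178, Pln at 354 against 846 and 773, and Tnni3 at 496 against 849 and 849. Within the DMSO group, Actc1 was highest in it, at 7219 FPKM against 3542 and 4254. Flt4 was too, at 18.0 FPKM against 2.52 and 1.97. Levels in the rat and the mouse came from separate annotations and cultures and were not tested against each other.

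**Figure D5:**
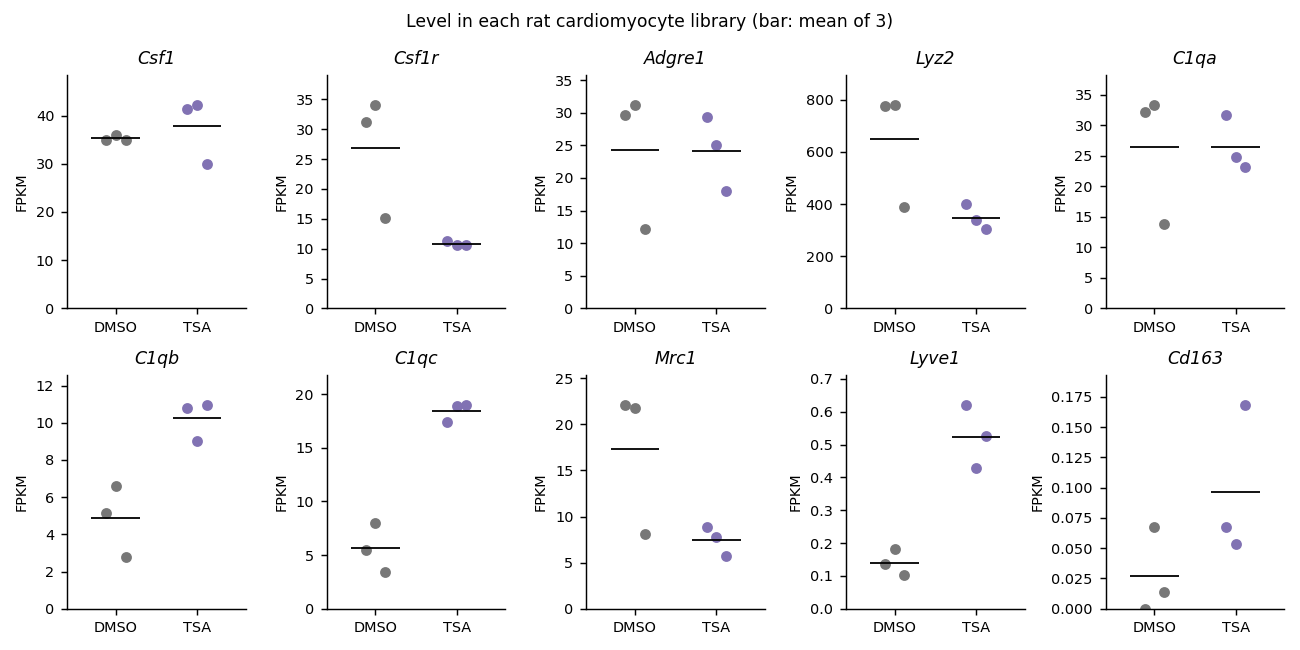
Level of each of the 10 genes in FPKM (vertical axes, each from 0) in the 3 DMSO and 3 TSA rat libraries (points), with their mean (bar). All TSA values of C1qb, C1qc and Lyve1 lay above the DMSO values and all TSA values of Csf1r below them, and DMSO replicate 3, the third point, was the lowest DMSO library for each of the 7 tested macrophage genes.

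After TSA 1 of the 8 tested members was called, C1qc, where 1.81% of all genes were called higher and 0.316% lower. C1qc was at 5.45, 8.01 and 3.41 FPKM in DMSO and 17.4, 18.9 and 19.0 FPKM in TSA, without overlap. It rose by 1.61 (SE 0.25, limma adjusted p = 0.022). The call was kept in 10 of 14 fits. Leaving out DMSO replicate 1 or any one TSA library gave adjusted p-values of 0.063 to 0.11, with the difference still at 1.59 to 1.65.

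The neighbouring chains moved by less. C1qb was at 5.16, 6.62 and 2.79 FPKM in DMSO and 10.8, 9.04 and 10.9 FPKM in TSA, which also did not overlap, with a difference of 1.00 (SE 0.26, limma adjusted p = 0.088). C1qa was at 32.1, 33.3 and 13.8 FPKM in DMSO and 31.6, 24.8 and 23.1 FPKM in TSA, with a difference of 0.09 (95% interval -0.69 to 0.87) that turned to -0.31 without DMSO replicate 3. The ratio of C1qc to C1qa within a library was 0.17, 0.24 and 0.25 in DMSO and 0.55, 0.76 and 0.82 in TSA. That ratio placed DMSO replicate 3 with the other DMSO libraries.

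Csf1r, Lyz2 and Mrc1 had lower means after TSA but were not called. Csf1r was at 11.3, 10.6 and 10.7 FPKM in TSA, below every DMSO library, with a difference of -1.15 (SE 0.29, limma adjusted p = 0.081). Lyz2 was at 399, 340 and 304 FPKM, overlapping DMSO replicate 3, with a difference of -0.84 (SE 0.28, limma adjusted p = 0.16). Mrc1 was at 22.1, 21.7 and 8.09 FPKM in DMSO and 8.85, 7.82 and 5.77 FPKM in TSA, with a difference of -1.01 (SE 0.37, limma adjusted p = 0.20). Without DMSO replicate 3 all 3 were called lower, at -1.50, -1.17 and -1.45, and 4 members were called in all, where 2.07% of all genes were called higher and 1.29% lower.

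Csf1 and Adgre1 did not differ detectably. Csf1 was at 41.4, 42.2 and 30.0 FPKM in TSA, with a difference of 0.08 (95% interval -0.26 to 0.42). Adgre1 was at 29.7, 31.2 and 12.1 FPKM in DMSO and 29.4, 25.0 and 18.0 FPKM in TSA, with a difference of 0.07 (95% interval -0.80 to 0.93) that was -0.35 without DMSO replicate 3. Lyve1 was at 0.14, 0.18 and 0.10 FPKM in DMSO and 0.62, 0.43 and 0.53 FPKM in TSA, worth 11 to 62 estimated reads, and Cd163 was at or under 0.17 FPKM throughout. A two-sided exact permutation test over the 6 libraries gave its smallest possible p of 0.1 for Csf1r, C1qb, C1qc and Lyve1, so it could not pass 0.05.

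Further lists gave the setting of these rat values. Of 22 other macrophage genes 19 were tested, with a median difference of -0.80 beside 0.03 for all genes, and 1 was called, Ctss, which fell by 1.74. Their summed level was 352 to 820 FPKM in DMSO and 285 to 367 FPKM in TSA, and 12 were called lower without DMSO replicate 3. Of 18 tested CSF1 pathway genes 0 were called (median -0.38), and of 6 haemoglobin scavenging genes also 0 (median -0.32), and of 8 complement genes only C1qc was. Of cardiomyocyte, fibroblast, lymphatic, mast and dendritic cell markers none was called, and of 7 endothelial markers 1 was, Cldn5, which rose by 1.05. Only 2 of 5 monocyte and 7 of 8 neutrophil genes were found by name in the rat, with 6 of 6 T and B cell genes. None of those found passed the minimum. Of the red cell genes 3 passed it, uncalled. Without DMSO replicate 3, 6 CSF1 pathway genes, 2 complement genes, 1 scavenging gene and 1 dendritic cell gene were called lower, and Cldn5 was no longer called. With the replicate block, 1 CSF1 pathway gene, 1 scavenging gene, 1 dendritic cell gene and 3 other macrophage genes were called lower, where 1.9% of all genes were called higher and 0.587% lower. Whether the TSA values reflect the number of macrophages left in the dishes was not tested.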

How the data were processed

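The deposited mouse and rat transcript files hold FPKM, TPM and coverage per transcript, made by the authors with HISAT2 2.1.0 and StringTie (1.3.5 for the mouse, 1.3.4d for the rat, per the file headers) on mm10 and Rnor_6.0. The deposited peak lists give a score, a fold enrichment ratio and −log10 p- and q-values, called by the authors with MACS2 in each sample separately. Gene FPKM was the sum over transcripts. Estimated reads were coverage times length over the read length of 150 bases. Log2(FPKM + 1) was fitted with limma 3.58.1 (R 4.3.3) over all libraries of a species, with Benjamini-Hochberg adjustment over all tested genes. Differences are on the log2(FPKM + 1) scale, which understates changes of low genes. The study calls its replicates biological, and the p-values measure the spread between these libraries.

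Rat libraries with the same number deviated together (correlations of 0.19 to 0.35), while those with unlike numbers ran from -0.27 to 0.17. The numbers may therefore pair the rat libraries, but this was not established. The main rat fit and the permutation test do not use such a pairing. A fit with the replicate block changed no call of a member but some calls of list genes. The fit was tested on simulated data. Groups came from the labels, and the named genes were the 10 members, list genes that were called or near 0 (some are not reported here), and the 5 genes most like Csf1 and Csf1r. The members and lists were chosen with earlier results of these data known. A peak counted when any base lay within 2.5 kb of an annotated start. Alternatives were another pseudocount, filter, scaling, test, window or peak threshold, and leaving out each library. The 6 HiChIP libraries were not analysed here.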

Additional observations from a re-analysis of the deposited data

How the results depend on the processing

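The number of called members was 3, 4 and 4 at P1, P3 and P7 against E18.5. With genes of mean FPKM of at least 5 only, it was 2, 2 and 3, where fewer members were tested. With a pseudocount of 0.1 and with limma-voom it was 5 at P3 and 6 at P7, and in TPM 5 at P7. With each library left out in turn it was 3 at P1, 4 to 5 at P3 and 4 to 5 at P7. Calls over all 13979 tested genes changed with the setting too. In the main fit those at P7 were 2155 higher and 1715 lower. They were 2689 and 2109 with a pseudocount of 0.1, 2807 and 2093 with limma-voom, and 3361 and 1576 in TPM. At P3 they went from 1814 and 1241 to 2437 and 1557 with that pseudocount, and to 2574 and 1553 with limma-voom. From P1 to P7, 1 member (Lyve1) was called instead of 0 with a pseudocount of 0.1, in TPM and with limma-voom. In the rat the count of 1 became 0 to 4 with a library left out: 4 without DMSO replicate 3, 1 without DMSO replicate 2, and 0 without DMSO replicate 1 or any TSA library. The sign turned for C1qc at P3 in TPM (0.077) and without P3 replicate 2 (range with a library left out -0.47 to 0.19). In the rat it turned for Adgre1 (-0.35 to 0.30) and C1qa (-0.31 to 0.30) without DMSO replicate 3 or TSA replicate 1, and for Csf1 (-0.00053 to 0.24) without TSA replicate 2. The cause was not tested.

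Members with a promoter peak in both libraries numbered 1, 0, 4 and 2 at E18.5, P1, P3 and P7. At P3 they were 1 with lists of equal number and 2 with the better-scored part of each list, cut at its median, and at P7 1 with lists of equal number. From single libraries the counts were 0 to 2 at P1, 4 to 6 at P3, 2 to 3 at P7 and 1 at E18.5. Same-numbered mouse libraries had correlations of deviations from -0.10 to 0.17, so the numbers were not taken to pair them, and the fit with a replicate block kept 3, 4 and 4 calls in the mouse and 1 in the rat. Only 2 libraries per mouse time point limit these tests. Adgre1, Mrc1 and the C1q chains rested on 73 to 429 estimated reads per mouse library, Cd163 on at most 18. The names in the peak lists of 2 libraries, E18.5 replicate 1 and P7 replicate 1, share a prefix.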
